A study of Mus musculus with 15 samples.

Results

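Complex I, the NADH dehydrogenase of the inner mitochondrial membrane, passes electrons from NADH to ubiquinone and pumps protons, and it is the entry point of the respiratory chain. The genes described here are the protein-coding mouse genes whose symbol begins with Nduf, which encode its nuclear subunits and a set of assembly factors. Of 24454 rows with counts, 46 met that rule, and 1 further Nduf row, the pseudogene Ndufs5-ps, was left out. The 46 genes were divided by role into 7 core catalytic subunits, 10 accessory subunits of the matrix arm, 19 accessory subunits of the membrane arm, 8 assembly factors, and Ndufa4 with its paralogue Ndufa4l2. Of these, 45 had enough counts to be tested. Ndufs5, an accessory subunit of the membrane arm, was listed at 0 counts in all 15 libraries. A count of 0 allows up to 0.0496 to 0.227 CPM (counts scaled to a common library size) for counting error only. That pseudogene held 228 counts in total, how reads were assigned is not known, and the 0 is therefore not read as a level of expression. Ndufb1, Ndufb4b, Ndufb4c and the subunits encoded by mitochondrial DNA were not analysed here.

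RNA was sequenced from the midbrain of mice in 5 groups of 3 libraries. TG intranasal mice carried the transgene and received 2 mg of carnosine through the nose. TG drinking water mice carried it and drank 10 mM carnosine, and TG control mice carried it without carnosine. WT intranasal mice were wild-type BDF1 animals given 2 mg through the nose, and WT control mice were BDF1 animals without carnosine. The transgenic line is Thy1-aSyn, in which a Thy1 promoter, active in many kinds of neurons, drives the transgene. Mice were 2 months old at the start and were treated for 2 months. Carnosine is a dipeptide of beta-alanine and histidine. The labels do not say whether the 3 libraries of a group came from separate animals, so p-values measure the spread between these libraries, which may be technical.

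The matrix arm of complex I holds the flavin and the iron-sulfur clusters along which electrons travel, and the membrane arm holds the proton channels. Accessory subunits surround this core and stabilise it, and assembly factors help to build the enzyme without remaining in it. In the midbrain the complex is known as the target of MPP+ and rotenone, toxins that damage dopamine neurons.

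Libraries held 23055862 to 34843691 counts in TG intranasal, 16256593 to 23919657 in TG drinking water, 14078637 to 17347311 in TG control, 25676560 to 60542423 in WT intranasal and 13202199 to 17759834 in WT control. Thy1, the check of the transgene, lay at 3297 to 5032 CPM in the 9 TG libraries, against 444 to 694 CPM in the 6 WT libraries. Marker genes of midbrain and neighbouring tissue varied between libraries. Th, the enzyme that makes dopamine precursors, ran between 2.96 and 28.1 CPM, and Slc6a3, the dopamine transporter, between 0.474 and 39.1 CPM. The summed level of 5 pituitary markers reached 664 CPM within TG control and 829 CPM within WT control. Gh, the growth hormone of the pituitary, was at 557 CPM in TG control 1 and 718 CPM in WT control 1, against at most 121 CPM elsewhere. Libraries also split by their most abundant row without a gene name, which took 0.122% to 0.320% of counts in TG control 3 and the 6 TG carnosine libraries, and 2.31% to 6.22% in the other 8. That split runs with treatment among the TG groups, and the labels name no batch for it. In bulk tissue, fewer cells of a type cannot be told apart from less RNA per cell.

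Between genes, levels were compared as CPM per kilobase of transcript. In TG control the highest were Ndufb9, a membrane-arm subunit, at 595, Ndufa4 at 431 and Ndufa3, also of the membrane arm, at 368 CPM per kilobase. The lowest were Ndufa4l2 at 1.77, and the assembly factors Ndufaf6 at 4.23 and Ndufaf4 at 6.41 CPM per kilobase. The core subunits Ndufs1, at 55.0 CPM per kilobase, and Ndufs7, at 143, lay above every assembly factor, of which Ndufaf5 was highest at 24.8. The matrix-arm subunit Ndufab1, at 15.4 CPM per kilobase, lay within the range of the assembly factors. That placing rests on the transcript length of 3479 bases used for Ndufab1. Without division by length, Ndufab1 at 53.4 CPM lay above every assembly factor, of which Ndufaf3 was highest at 29.9 CPM.

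Nduf transcripts took a share of the library that was highest in WT control and lowest in WT intranasal. The mean log2 CPM over the 45 tested genes was 6.64, 6.61 and 7.003 in TG intranasal, 6.73, 6.42 and 6.34 in TG drinking water, 6.64, 5.86 and 6.49 in TG control, 6.44, 6.12 and 6.05 in WT intranasal, and 7.35, 6.70 and 6.87 in WT control. TG control 2 and WT control 1 mark the ends of that range, and WT intranasal lay wholly below WT control. Group means were 6.75 ± 0.220 in TG intranasal, 6.49 ± 0.206 in TG drinking water, 6.33 ± 0.416 in TG control, 6.20 ± 0.211 in WT intranasal and 6.97 ± 0.337 in WT control (SD, n = 3 each). In this order of levels, from WT control through TG intranasal, TG drinking water and TG control to WT intranasal, the ranges of neighbouring groups overlap at each step. Added together, the 45 genes gave 5296 ± 1466 CPM in TG control, 4623 ± 726 CPM in WT intranasal and 8520 ± 2174 CPM in WT control.

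**Figure D1:**
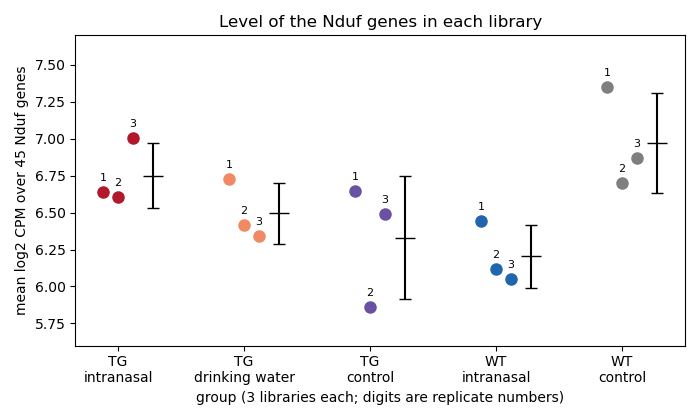
Mean log2 CPM over the 45 tested Nduf genes in each library (points, with replicate numbers) by group, with the group mean and SD beside the points; the vertical axis does not start at 0. WT control 1 is highest at 7.35 and TG control 2 is lowest at 5.86, each apart from the other libraries of its group.

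Most members moved together from library to library. WT control 1 was the highest of the 15 libraries for 37 of the 45 genes, against 18.4% of all genes tested, and TG control 2 was the lowest for 40 of them, against 14.8%. The steadiest member was Ndufs1, the largest iron-sulfur protein of the enzyme, with a range of 0.42 log2 units over the 15 libraries, followed by the membrane-arm subunit Ndufa10 at 0.62. Ndufb2, a small membrane-arm subunit, varied most, with a range of 2.63. A relation with transcript length accompanied this pattern: across 15081 genes, Spearman's rho between length and a gene's deviation from its own mean was -0.57 in WT control 1 and 0.63 in TG control 2. The same rho was 0.53 in both WT intranasal 2 and WT intranasal 3. These correlations run across genes of a single library, and genes are not independent replicates.

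**Figure D2:**
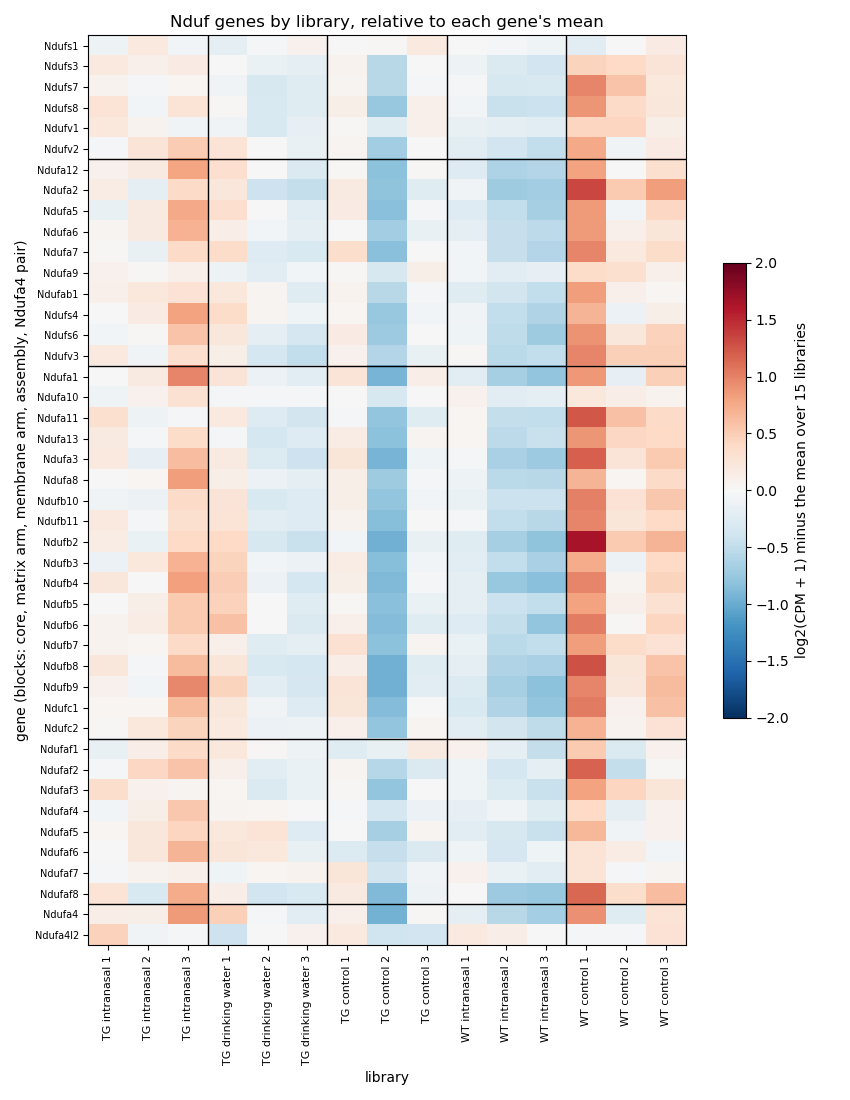
Each row is 1 of 44 of the 45 tested Nduf genes, in blocks of core, matrix-arm, membrane-arm and assembly genes with the Ndufa4 pair last, and each column a library; colour gives log2(CPM + 1) minus the gene's mean over the 15 libraries. The column of WT control 1 is red and that of TG control 2 blue for most rows, while Ndufs1 at the top stays near white, with a range of 0.42.

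Promoters were examined because the members moved together. RefSeq windows of 300 bases, from 250 before to 50 after the start (build GRCm38.p6), were found for 40 of the 46 genes. Ndufaf6, Ndufa2, Ndufs1, Ndufb9 and Ndufa4l2 were among the 6 with none. These 40 genes had 42 windows, searched on both strands beside all 32851 windows of the table. NRF1, a regulator of respiratory genes, has the motif GCGCANGCG, which was in 11 of the 42 windows (26.2%) and in 6.25% of all. YY1, also known to act on such genes, was searched as AAGATGGCG, found in 6 windows (14.3%) and 1.4% of all. The NRF1 and YY1 motifs were shortened to these letters after a first search, so their shares are description only. The ETS-family motif CCGGAAG was in 6 (14.3%) against 8.86% of all, and the CREB-family motif TGACGTCA, searched after the sequences had been seen, in 3 (7.14%) against 1.79%. None of the motifs overlaps another motif in the stretches printed here, though the NRF1 motif of Ndufa11 matches on both strands, offset by 1 base. Ndufb2 and Ndufa11 are shown over the 250 bases before the start since both are among the members that differ most between groups. Capitals mark TGACGTCA in both, and also the NRF1 motif in Ndufa11. TGACGTCA was also in the window of Ndufa10, which is not shown. In TG control against WT control Ndufa10 had the smallest difference of the membrane-arm subunits, at -0.24. The Ndufb2 stretch is chr6:39592315-39592564 and the Ndufa11 stretch chr17:56717512-56717761, each on the plus strand, written 5′ to 3′.
Ndufb2: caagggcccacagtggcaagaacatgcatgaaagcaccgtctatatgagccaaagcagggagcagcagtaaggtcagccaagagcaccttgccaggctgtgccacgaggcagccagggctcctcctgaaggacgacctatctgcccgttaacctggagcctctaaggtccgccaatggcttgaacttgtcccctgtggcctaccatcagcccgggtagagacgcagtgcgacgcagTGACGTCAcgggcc
Ndufa11: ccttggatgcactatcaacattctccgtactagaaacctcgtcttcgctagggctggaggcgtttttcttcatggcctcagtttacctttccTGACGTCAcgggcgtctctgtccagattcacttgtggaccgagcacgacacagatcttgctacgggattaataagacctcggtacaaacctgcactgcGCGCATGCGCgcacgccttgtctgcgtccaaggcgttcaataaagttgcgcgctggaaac

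In 4 genes of the matrix arm the YY1 motif lay within the 50 bases after the start, on the gene's own strand. They are shown as 30 bases each, with the motif in capitals, because the same letters recur there in a core subunit and in 3 accessory subunits. Ndufs7 is at chr10:80249463-80249492 on the plus strand. On the minus strand are Ndufs4 at chr13:114388045-114388074, Ndufs6 at chr13:73328433-73328462 and Ndufa9 at chr6:126849096-126849125. A match describes letters in a window and is no evidence of binding.
Ndufs7: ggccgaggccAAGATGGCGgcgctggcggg
Ndufs4: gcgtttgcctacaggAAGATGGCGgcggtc
Ndufs6: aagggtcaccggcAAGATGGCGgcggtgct
Ndufa9: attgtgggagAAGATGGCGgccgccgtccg

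Without carnosine, TG control was set against WT control to read the effect of the transgene. Nduf genes were lower in TG control in 44 of 45 cases, against 48.0% of all genes tested, with a median log2 fold change of -0.63 against 0.02 for all genes. Nduf transcripts are short. With all genes in 20 bins by transcript length, the shortest bin (median 727 bases) had a median log2 fold change of -0.59. No member passed an adjusted p of 0.05 in edgeR's quasi-likelihood test, in which 0.0126% of all genes passed in either direction. An unadjusted p under 0.05 with a lower level in TG control was reached by 33 members, against 9.27% of all genes, and DESeq2 called 8 members lower, against 1.92%. The TG control libraries lay wholly below the WT control libraries for 20 members, against 9.07% of all genes.

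Among core subunits, Ndufs7, part of the site where ubiquinone is reduced, had 125, 82.0 and 118 CPM in TG control, against 238, 178 and 139 CPM in WT control. The groups did not overlap, and the log2 fold change was -0.77 (SE 0.19), with an edgeR adjusted p of 0.127. Ndufs8, which carries iron-sulfur clusters close to that site, had 142, 77.1 and 141 CPM in TG control and 242, 171 and 154 CPM in WT control, at -0.65 (SE 0.22), again without overlap. Ndufs3, a structural subunit of the same module, had 156, 100.1 and 148 CPM in TG control, against 202, 195 and 177 CPM in WT control. Its groups were apart as well, at -0.51 (SE 0.16).

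Ndufv1, which binds the flavin and oxidises NADH, had 219.7, 183 and 232 CPM in TG control and 292, 291 and 235 CPM in WT control, a log2 fold change of -0.37 (SE 0.14). The groups did not overlap, but the highest TG control library and the lowest WT control library were nearly level. Ndufv2, its iron-sulfur partner, had 188, 112 and 181 CPM in TG control, against 306, 173 and 204 CPM in WT control, and these groups overlapped. Ndufs1 was the only member on the higher side of 0, at 138, 142 and 159.7 CPM in TG control against 119.7, 139 and 156 CPM in WT control. Its log2 fold change of 0.08 (SE 0.14) was within the spread of the libraries.

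The 10 matrix-arm accessory subunits were all on the lower side, with a median of -0.63. Ndufa2, a small subunit with a thioredoxin-like fold, had 185, 93.9 and 138 CPM in TG control and 415, 235 and 292 CPM in WT control. Its log2 fold change was -1.18 (SE 0.28), and no TG control library reached the lowest WT control library. Ndufs4, whose loss in mice gives a Leigh-like brain disease, had 93.0, 53.4 and 87.2 CPM in TG control, against 146, 83.9 and 98.4 CPM in WT control, with overlapping groups. Ndufab1, the mitochondrial acyl carrier protein, which also serves fatty acid synthesis, had 62.1, 40.0 and 58.1 CPM in TG control and 106, 63.4 and 61.1 CPM in WT control. There 1 TG control library exceeded 1 WT control library.

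All 18 tested membrane-arm accessory subunits were on the lower side, with a median of -0.75. Ndufb2 had 103, 54.6 and 96.1 CPM in TG control, against 338, 153 and 171 CPM in WT control, at -1.38 (SE 0.31, edgeR adjusted p of 0.125). Ndufa11, which sits at the foot of the membrane arm, had 116, 67.9 and 99.2 CPM in TG control and 279, 177 and 155 CPM in WT control, at -1.11 (SE 0.25, edgeR adjusted p of 0.125). For both genes the groups were apart, with WT control 1 far above its 2 companions. Ndufa10, the member of this class with the smallest difference, stood at -0.24 (SE 0.14).

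The 8 assembly factors were all on the lower side too, from -0.98 (SE 0.32) for Ndufaf8, the partner of the hydroxylase Ndufaf5, to -0.16 (SE 0.16) for Ndufaf7, a methyltransferase. Ndufa4, which was named as a complex I subunit and is found in cytochrome c oxidase, had 324, 157 and 308 CPM in TG control, against 569, 257 and 364 CPM in WT control. These groups overlapped. Ndufa4l2, its hypoxia-inducible paralogue, rested on 18 to 138 counts a library and had 2.42, 1.26 and 1.28 CPM in TG control and 1.94, 1.92 and 2.63 CPM in WT control.

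The size of this difference changed with single libraries. Without TG control 2 the median over the members was -0.39, without WT control 1 it was -0.44, and without TG control 1 it was -0.83. With a term for the split by the most abundant unnamed row it was -0.71.

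**Figure D3:**
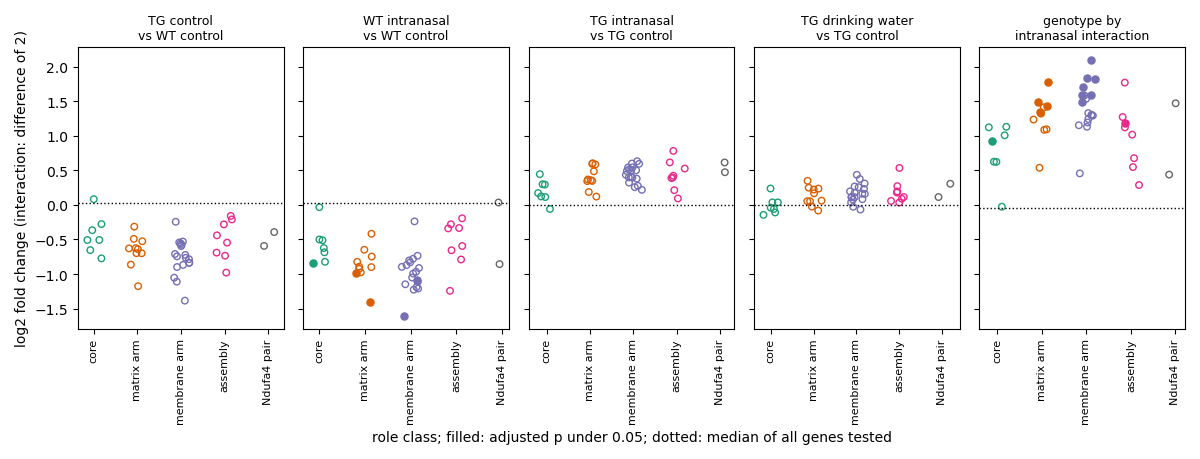
Log2 fold change of each tested Nduf gene (points) by role class in 5 comparisons, with the last panel for the difference between the TG and the WT effect of intranasal carnosine; filled points passed an adjusted p of 0.05, and the dotted line is the median of all genes tested. In the panels of TG control and WT intranasal against WT control 44 of 45 members lie below 0, and in those of TG intranasal and of the interaction 44 of 45 lie above 0.

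In WT mice, intranasal carnosine went with lower Nduf levels. The WT intranasal level was below that of WT control for 44 of 45 members, against 47.8% of all genes, with a median log2 fold change of -0.83 against 0.02. The bin of shortest transcripts among all genes had a median of -0.73 here. In edgeR's quasi-likelihood test, with p adjusted over all 15818 genes, 5 members fell, against 0.683% of all genes called lower and 1.01% called in either direction, and none rose. The 5 are the core subunit Ndufs7, the matrix-arm subunits Ndufa2 and Ndufv3, and the membrane-arm subunits Ndufb2 and Ndufa11. An unadjusted p under 0.05 on the lower side was reached by 37 members, against 12.3%, and the groups did not overlap for 36, against 13.4%. This comparison shares its WT control libraries with the previous one.

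Ndufb2 fell to 89.7, 67.4 and 60.6 CPM in WT intranasal, against 338, 153 and 171 CPM in WT control, a log2 fold change of -1.60 (SE 0.31, edgeR adjusted p of 0.0467). Ndufa2 had 156, 99.2 and 100.3 CPM in WT intranasal and 415, 235 and 292 CPM in WT control, at -1.40 (SE 0.28, edgeR adjusted p of 0.0467). In both genes every WT intranasal library was below every WT control library.

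Ndufa11 had 121, 83.9 and 83.6 CPM in WT intranasal, against 279, 177 and 155 CPM in WT control, at -1.08 (SE 0.25, edgeR adjusted p of 0.0467). Ndufv3, a small subunit of the NADH-oxidising module, had 106, 71.5 and 73.3 CPM in WT intranasal and 206, 144 and 145 CPM in WT control, at -0.98 (SE 0.22, edgeR adjusted p of 0.0467). Ndufs7 fell to 118, 95.8 and 97.2 CPM in WT intranasal, against 238, 178 and 139 CPM in WT control, at -0.84 (SE 0.19, edgeR adjusted p of 0.0467). Within WT intranasal the first library was the highest for each of these 3 genes, and the groups were apart.

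The other core subunits did not pass. Ndufs3 had 138, 122 and 113 CPM in WT intranasal, against 202, 195 and 177 CPM in WT control, groups that do not overlap (edgeR adjusted p of 0.0571). Ndufs8 had 127, 96.5 and 97.5 CPM in WT intranasal and 242, 171 and 154 CPM in WT control, and Ndufv2 had 156, 139 and 129 CPM against 306, 173 and 204 CPM. Ndufv1 had 195, 192 and 188 CPM in WT intranasal, the narrowest spread of the core subunits given here, against 292, 291 and 235 CPM in WT control, and the groups were apart. Ndufs1 had 139.9, 135 and 130.1 CPM in WT intranasal, inside the WT control range of 119.7 to 156 CPM.

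By role, the medians in this comparison were -0.62 for core subunits, -0.90 for the matrix arm, -0.98 for the membrane arm and -0.47 for assembly factors. Ndufab1 had 50.1, 45.7 and 41.7 CPM in WT intranasal and 106, 63.4 and 61.1 CPM in WT control. Ndufs4 had 86.2, 64.2 and 59.2 CPM in WT intranasal, against 146, 83.9 and 98.4 CPM in WT control, and Ndufa4 had 263, 205 and 189 CPM against 569, 257 and 364 CPM. Those last 2 overlapped between groups, Ndufab1 did not. Ndufa4l2, at 2.42, 2.26 and 1.97 CPM in WT intranasal and 1.94, 1.92 and 2.63 CPM in WT control, was the single member on the higher side, at 0.03 (SE 0.38).

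The adjusted p-values of the 5 calls lay just under the threshold, and their number changed with the libraries used. It was 0 when WT control 1, WT intranasal 2 or WT intranasal 3 was left out. Dropping WT control 2 gave 8 on a background of 1.23% of all genes called, dropping WT control 3 gave 7 on 2.14%, and dropping WT intranasal 1 gave 21 on 5.98%. With upper-quartile scaling or a term for the split no member was called, though the median stayed at -0.84 and -0.83, and all 6 WT libraries were on the same side of the split. By contrast, DESeq2 called 35, against 5.82% of all genes. The summed pituitary markers ranged from 4.86 to 59.3 CPM in WT intranasal and from 45.1 to 829 CPM in WT control, with none of the 5 markers at 0 throughout. All 5 had lower fitted values in WT intranasal, and none was called. Gabra6, a marker of cerebellar granule cells, had 0, 14.4 and 18.6 CPM in WT intranasal libraries, against 0.168, 0 and 0 CPM in WT control libraries, and its part in the result was not tested. When both libraries high in Gh were dropped, the median was -0.61 and 0 members were called.

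**Figure D4:**
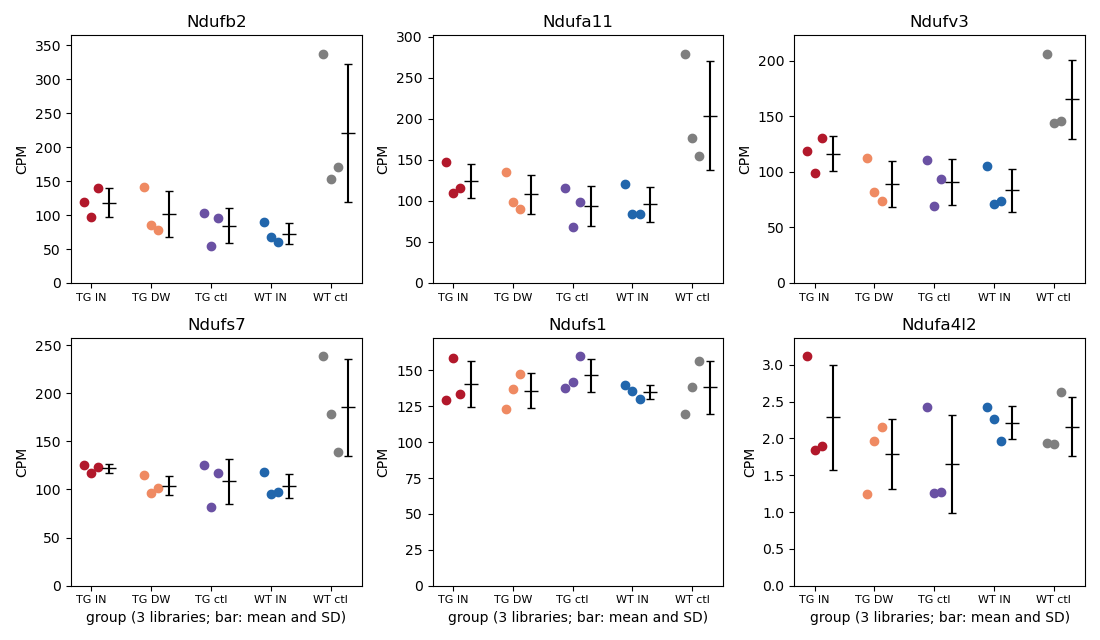
CPM of 6 Nduf genes in each library (points) by group, with mean and SD; TG IN, TG DW, TG ctl, WT IN and WT ctl stand for TG intranasal, TG drinking water, TG control, WT intranasal and WT control. Ndufb2 reaches 338 CPM in WT control 1 and stays at or below 171 CPM elsewhere, while Ndufs1 covers 119.7 to 159.7 CPM over all 15 libraries.

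In TG mice, intranasal carnosine was set against TG control to ask whether it acts in the presence of the transgene. The TG intranasal level was above that of TG control for 44 of 45 members, against 49.6% of all genes, with a median log2 fold change of 0.40 against 0.00 for all genes. No member passed the adjusted test in edgeR, where 0.00632% of all genes did, and DESeq2 called 0 members as well, against 0.0253% of all genes called higher. An unadjusted p under 0.05 on the higher side was reached by 5 members, against 3.82% of all genes. TG intranasal lay wholly above TG control for 7 members, against 5.95%, namely Ndufa12, Ndufa6, Ndufab1, Ndufaf3, Ndufaf6, Ndufs3 and Ndufa4.

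Ndufaf6, a membrane-bound assembly factor, had the smallest p of this comparison, with 6.01, 7.30 and 10.3 CPM in TG intranasal against 4.85, 4.13 and 4.76 CPM in TG control. Its log2 fold change was 0.78 (SE 0.24), with an edgeR adjusted p of 0.510. Ndufa6, a matrix-arm subunit that docks the acyl carrier protein, had 115, 126 and 181 CPM in TG intranasal and 110.3, 68.1 and 99.5 CPM in TG control, at 0.60 (SE 0.22). Ndufa12, a matrix-arm subunit related to the assembly factor Ndufaf2, had 126, 134 and 205 CPM in TG intranasal, against 121, 66.7 and 120.5 CPM in TG control. In all 3 genes TG intranasal 3 was the highest and TG control 2 the lowest library.

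Ndufs4 had 90.0, 102 and 159 CPM in TG intranasal and 93.0, 53.4 and 87.2 CPM in TG control, with overlap. Ndufa4 had 330.4, 329 and 547 CPM in TG intranasal, against 324, 157 and 308 CPM in TG control, and Ndufab1 had 63.1, 68.2 and 72.4 CPM against 62.1, 40.0 and 58.1 CPM. The gap between the nearest libraries of those last 2 genes was small beside the spread within TG control.

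Core subunits had a median of 0.17. Ndufs3 had 169.7, 159 and 167 CPM in TG intranasal, against 156, 100.1 and 148 CPM in TG control. Ndufs7 had 126, 117 and 123 CPM in TG intranasal and 125, 82.0 and 118 CPM in TG control, so 2 of the 3 TG control libraries fell within its TG intranasal range. Ndufv2 had 177, 217 and 259.5 CPM in TG intranasal, against 188, 112 and 181 CPM in TG control. Ndufs1, at 129.7, 159 and 133 CPM in TG intranasal and 138, 142 and 159.7 CPM in TG control, was the single member on the lower side. Without TG control 2 the median of all members was 0.19, and without TG intranasal 3 it was 0.25.

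Carnosine in the drinking water was compared with TG control in the same way. The TG drinking water level was above TG control for 37 of 45 members, against 50.7% of all genes, and the median log2 fold change was 0.11 against 0.01. None passed the adjusted test in edgeR, where 0.00632% of all genes did, DESeq2 called 0 members, against 0.0759% of all genes called higher, and 1 member had an unadjusted p under 0.05 on the higher side, against 2.71%. The 2 members whose groups did not overlap, against 6.44% of all genes, were the assembly factors Ndufaf6 and Ndufaf4. Ndufaf6 had 7.32, 7.17 and 5.37 CPM in TG drinking water, against 4.85, 4.13 and 4.76 CPM in TG control, at 0.53 (SE 0.24, edgeR adjusted p of 0.585).

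Next by p were Ndufb5 and Ndufb6, both of the membrane arm, and Ndufs4. Ndufb5 had 256, 183 and 155 CPM in TG drinking water and 187, 103 and 168 CPM in TG control, and Ndufb6 had 166, 110.0 and 89.9 CPM against 118, 59.4 and 93.1 CPM. Ndufs4 had 117, 94.6 and 85.5 CPM in TG drinking water, against 93.0, 53.4 and 87.2 CPM in TG control. In each the groups overlapped, and TG drinking water 1 was the highest of the 6 libraries. Core subunits had a median of -0.04, with Ndufv1 lowest at -0.14 (SE 0.14), from 206, 175 and 193 CPM in TG drinking water and 219.7, 183 and 232 CPM in TG control. The direction of the members' median was not stable: it was -0.07 without TG control 2 and -0.01 without TG drinking water 1, but 0.31 without TG control 1. It was 0.20 without TG control 3, 0.21 without TG drinking water 3, and 0.02 with a term for the split.

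Between the 2 routes in TG mice the doses were not matched, 2 mg through the nose against 10 mM in the water, so the values are given side by side. The TG intranasal level was above that of TG drinking water for all 45 members, against 52.1% of all genes, with a median of 0.26 against 0.02. Neither edgeR nor DESeq2 called a member. Of all genes edgeR called 0% and DESeq2 called 0.0569% higher, and 0 members had an unadjusted p under 0.05, against 2.78% on the higher side. TG intranasal lay wholly above TG drinking water for 5 members, against 7.63%. Ndufv1 had the smallest p, with 252, 228 and 207 CPM in TG intranasal against 206, 175 and 193 CPM in TG drinking water, at 0.26 (SE 0.14).

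Ndufs3 had 169.7, 159 and 167 CPM in TG intranasal and 149, 136 and 129.9 CPM in TG drinking water, also apart. Ndufv3 had 119, 99.2 and 131 CPM in TG intranasal, against 112, 81.6 and 73.6 CPM in TG drinking water, and Ndufa13, a membrane-arm subunit first described as GRIM-19, had 273, 235 and 313 CPM against 235, 189.8 and 202 CPM. For those last 2 genes the groups overlapped. The median was 0.09 without TG intranasal 3, 0.17 without TG drinking water 3 and 0.39 without TG drinking water 1.

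The genotype by intranasal interaction tests whether the 2 genotypes differ in their response to carnosine, and is the TG log2 fold change minus the WT one. It was above 0 for 44 of 45 members, against 47.4% of all genes, with a median of 1.24 against -0.05. In edgeR's quasi-likelihood test 13 members were called above 0, against 1.42% of all genes. None was called below 0, against 0.898%, and 2.32% of all genes were called in either direction. DESeq2 called 39 members above 0, against 8.46%. The 13 members called by edgeR are the core subunit Ndufs3, the matrix-arm subunits Ndufa2, Ndufa6, Ndufa12 and Ndufv3, the membrane-arm subunits Ndufa11, Ndufb2, Ndufb4, Ndufb6, Ndufb8, Ndufb9 and Ndufc1, and the assembly factor Ndufaf3. An unadjusted p under 0.05 above 0 was reached by 41 members, against 13.9%. The interaction uses the same control libraries as both single effects, so it is not further evidence for them.

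Ndufb2 had the largest value, 2.09 (SE 0.44, edgeR adjusted p of 0.0487), from 119, 96.9 and 140.3 CPM in TG intranasal and 103, 54.6 and 96.1 CPM in TG control, and from 89.7, 67.4 and 60.6 CPM in WT intranasal and 338, 153 and 171 CPM in WT control. In TG the treated libraries were the higher, with overlap, and in WT they were the lower. Ndufb8, of the outer membrane arm, had 368, 306 and 489 CPM in TG intranasal and 344, 160.4 and 265 CPM in TG control. In WT it had 277, 206 and 199.6 CPM with carnosine, against 756, 372 and 468 CPM in WT control, and its interaction was 1.82 (SE 0.41). Ndufa2, with 182, 143 and 213 CPM in TG intranasal and 185, 93.9 and 138 CPM in TG control, had 1.77 (SE 0.39). Most of each of these values came from the WT pair, in which the separate effect was the larger.

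Ndufa6, at 97.8, 80.1 and 77.2 CPM in WT intranasal and 200.4, 119 and 132 CPM in WT control, had an interaction of 1.43 (SE 0.32). Ndufs3 had 0.92 (SE 0.22), the smallest of the 13 called. Ndufs1 gave -0.03 (SE 0.20), the single member below 0. Over the role classes the medians were 0.92 for core subunits, 1.33 for the matrix arm, 1.41 for the membrane arm and 1.07 for assembly factors.

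All 13 adjusted p-values lay between 0.0487 and 0.0495, and the count depended on single libraries. It was 0 when WT control 1, WT intranasal 2, WT intranasal 3, TG control 2, TG control 3 or any of TG intranasal 1, TG intranasal 2 and TG intranasal 3 was left out. Dropping WT control 3 gave 11 on a background of 3.09% of all genes called. Dropping WT control 2 gave 35, dropping WT intranasal 1 gave 33 and dropping TG control 1 gave 36, while the share of all genes called also went up, to 12.3%, 11.9% and 14.7%. With a term for the split, which separates TG control 1 and 2 from TG intranasal, it was 0, and the median was 1.09.

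Transcript length ran with these differences. Nduf transcripts were short, with a median of 881.5 bases against 2904 for the 15081 genes with a length. Across genes, Spearman's rho between length and log2 fold change was 0.61 within the members and 0.57 over all genes for TG control against WT control, 0.70 and 0.60 for WT intranasal against WT control, and -0.65 and -0.62 for the interaction. In TG it was -0.33 and -0.48 for intranasal carnosine, -0.10 and -0.17 for drinking water, and -0.37 and -0.37 between the routes. Genes are not independent replicates, and all of them share the same libraries.

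After a correction of each library for transcript length and GC content, the members' medians moved to -0.10 for TG control against WT control, -0.18 for WT intranasal against WT control, 0.07 for TG intranasal against TG control, 0.02 for TG drinking water against TG control and 0.20 for the interaction. Counted by sign, 33 members were then lower in TG control, against 47.7% of all genes, 39 were lower in WT intranasal, against 48.8%, and 34 had an interaction above 0, against 48.7%. Above TG control were 30 members in TG intranasal, against 50.1%, and 25 in TG drinking water, against 51.3%. Between the routes the corrected median was 0.07, and 30 members were higher in TG intranasal than in TG drinking water, against 50.4%. No member was called after the correction in any of the comparisons without a replicate block. With the block, 1 member was called lower in TG control against WT control, where 24 of 15081 genes were called in either direction. In WT intranasal against WT control 5 members were called lower, where 250 of 15081 genes were called in either direction. The interaction was called above 0 for 3 members, and its count over all genes is not given here. The values that follow are from the correction without the block. They begin with the 5 members called in WT intranasal against WT control before the correction. Ndufa2 was at -0.57 (SE 0.11, edgeR adjusted p of 0.0618), Ndufb2 at -0.55 (SE 0.12, edgeR adjusted p of 0.0692) and Ndufv3 at -0.42 (SE 0.11, edgeR adjusted p of 0.0968). Ndufs7 moved to -0.03 (SE 0.11) and Ndufa11 to -0.13 (SE 0.13). The lowest corrected values in that comparison were those of Ndufab1 at -0.89 (SE 0.22, edgeR adjusted p of 0.0932) and Ndufb8 at -0.88 (SE 0.19, edgeR adjusted p of 0.0692).

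**Figure D5:**
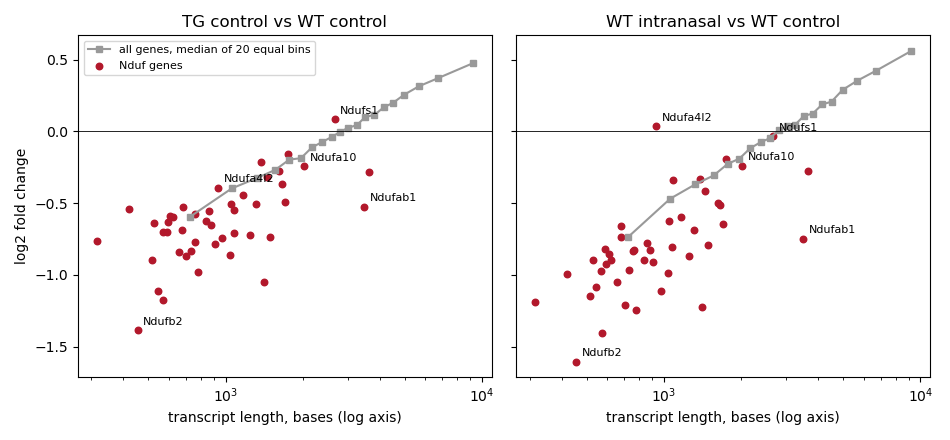
Log2 fold change of each Nduf gene (red) against transcript length in bases on a log axis, with the median of all genes in 20 bins of equal size (grey squares), for TG control and for WT intranasal, each against WT control. Short transcripts lie lower than long ones among the members and in the grey squares, and Ndufb2 lies farthest down at -1.38 and -1.60.

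Other parts of the respiratory chain were read from lists chosen with earlier results of these data known. In TG control against WT control, all members of complex II, complex III, complex IV and complex V that were listed were on the lower side, with medians of -0.42, -0.68, -0.72 and -0.69, and 0 were called. In WT intranasal against WT control their medians were -0.49, -0.83, -1.01 and -0.81. Called lower there were Uqcrq (-1.41, SE 0.30) and Uqcr11 (-1.44, SE 0.32) of complex III, Cox7a2 (-1.30, SE 0.29), Cox5b (-1.20, SE 0.26) and Cox4i1 (-1.43, SE 0.32) of complex IV, and Atp5e of the ATP synthase (-1.66, SE 0.34). The interaction was called above 0 for 1 of 4, 4 of 9, 3 of 10 and 4 of 17 of these lists, each on a background of 1.42%. The values of these lists, and of those that follow, are given without the length correction. Among all genes, those in the bin of shortest transcripts had a median length of 727 bases. Their median log2 fold change was -0.59 in TG control and -0.73 in WT intranasal, each against WT control. The part of transcript length in the differences between lists was not tested.

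The 9 assembly factors of complex I without an Nduf symbol had medians of -0.26 in TG control and -0.16 in WT intranasal, each against WT control, and 0 of 9 were called. Their only called interaction was that of Dmac1, which helps to build the outer membrane arm, at 1.16 (SE 0.28, edgeR adjusted p of 0.0487). The 12 citric acid cycle enzymes, which also work in the mitochondrial matrix, had medians of -0.09 and -0.13, with 0 called. The 10 regulators of respiratory gene transcription had medians of 0.14 and 0.16, also with 0 called. Their interaction had a median of -0.09, with 5 below 0, 5 above 0 and 0 called. Among them Ppargc1a, the coactivator of mitochondrial biogenesis, had an interaction of -0.96 (SE 0.31, edgeR adjusted p of 0.0670). In WT intranasal against WT control Ppargc1a was at 0.49 (SE 0.22), while Esrra, another of the 10, was at -0.53 (SE 0.18).

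Markers of the cells in the tissue were read beside these results. The 4 neuron markers summed to 2466 to 2752 CPM in TG control, 2634 to 2734 CPM in WT intranasal and 2551 to 2665 CPM in WT control, with medians of 0.04 and 0.05 in the comparisons with WT control. The 6 astrocyte markers summed to 4735 to 9532 CPM in TG control, 4934 to 7577 CPM in WT intranasal and 3698 to 5523 CPM in WT control. Slc1a2, the astrocyte glutamate transporter, was the 1 astrocyte marker called in the interaction, at -2.68 (SE 0.66, edgeR adjusted p of 0.0487). No neuron or astrocyte marker was at 0 in all libraries of a group.

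None of the other marker lists held a call in TG control or WT intranasal, each against WT control, but several lay to one side. The 5 microglia markers had medians of 0.58 in TG control, with 5 of 5 higher, and 0.40 in WT intranasal, with 4 of 5 higher. They summed to 373 to 509 CPM in TG control, 368 to 514 CPM in WT intranasal and 216 to 396 CPM in WT control. The 4 choroid plexus markers were higher in 4 of 4 cases in both comparisons, with medians of 0.67 and 0.35. The 6 dopamine neuron markers had a median of 0.06 in TG control, with 3 of 6 higher, and of 0.53 in WT intranasal, with 6 of 6 higher. Their sums were 54.9 to 135 CPM in TG control, 63.7 to 146 CPM in WT intranasal and 57.2 to 103 CPM in WT control. Oligodendrocyte markers had medians of -0.27 and -0.12, pericyte markers of -0.33 and 0.43, endothelial markers of 0.32 and 0.59, and cerebellar markers of 0.06 and 2.55. The part of these cells in the Nduf differences was not tested.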

How the data were processed

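Total RNA from 15 midbrain samples had been sequenced, per the labels' protocols, after mirVana extraction and standard Illumina library preparation. The authors deposited raw, unnormalized counts per gene ID; the sources used here do not give the aligner, counter, strand setting or genome build, so overlapping or antisense genes and near-identical pseudogene copies may share reads. Gene IDs were named from a RefSeq table of GRCm38.p6, which matched 24374 of 24454; the 80 rows left without a name stayed in, with 0.148% to 6.23% of the counts of each library. Groups came from sample titles.

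In R 4.3.3, edgeR 4.0.16 (filterByExpr, 15818 genes, TMM scaling, glmQLFit with a mean per group over all 15 libraries, common biological coefficient of variation 0.244) tested 6 contrasts, with Benjamini-Hochberg adjustment over all genes and a threshold of 0.05. Log2 CPM used a prior count of 2. No p was computed for the members as a set. Transcript lengths are medians over RefSeq-matched GENCODE transcripts, and the correction fits a loess curve (span 0.3) of log2 CPM residuals per library. The procedure was tested on simulated data, which held no library split and no differences in the relation with length within a group. Counts of a group's libraries differed by more than sampling noise, so none was a duplicate.

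The members and lists were chosen with earlier results of these data known. Named with values are the core subunits (1 is not reported here), Ndufs4, Ndufab1, Ndufa4 and Ndufa4l2, the 4 smallest p of each comparison, every called member and the extremes of each role class; of other lists, called genes and the 2 smallest p. Ndufa3, Ndufaf4, Ndufaf5, Gh and Gabra6 were named after their values were seen, and the NRF1 and YY1 motifs were shortened to their present letters after a first search. Alternatives were RLE and upper-quartile scaling, no filter or 5 CPM in 3 libraries, only the compared groups, a replicate block, a term for the split of libraries, the length correction with and without the block, leaving out libraries, and DESeq2 1.42.0.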

Additional observations from a re-analysis of the deposited data

Results flagged for a closer look

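For 13 Nduf genes the effect of intranasal carnosine differed between TG and WT mice by the test of the difference itself, edgeR's interaction term, in 3 libraries a group. The log2 fold change in TG minus that in WT was 2.09 for Ndufb2, 1.84 for Ndufb9, 1.82 for Ndufb8, 1.77 for Ndufa2, 1.71 for Ndufb4, 1.59 for Ndufb6 and 1.59 for Ndufc1. It was 1.49 for Ndufa12, 1.48 for Ndufa11, 1.43 for Ndufa6, 1.34 for Ndufv3, 1.18 for Ndufaf3 and 0.92 for Ndufs3. The edgeR adjusted p was 0.0487 for 12 of them and 0.0495 for Ndufb4. None of these members was called in TG intranasal against TG control, and 4 of them (Ndufb2, Ndufa2, Ndufa11 and Ndufv3) were called in WT intranasal against WT control. These calls held in some settings and not in others. With the length and GC correction and no replicate block, 0 Nduf genes were called. There the median interaction of the members was 0.199 in place of 1.24, and Ndufc1 was at -0.205. The count of called Nduf genes was also 0 with a term for the library split, with only the compared groups in the fit, and on leaving out any of 8 single libraries. With both the correction and the block it was 3.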

How the results depend on the processing

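The members' medians kept their direction under RLE and upper-quartile scaling and both filters, and the counts of calls changed. Calls over all genes, then among Nduf genes, are given, here without a replicate block. For WT intranasal against WT control there were 0 and 0 with upper-quartile scaling, 534 and 21 without a filter, 2 and 0 with only the compared groups, 0 and 0 with a term for the library split, 0 and 0 with the length and GC correction, 0 and 0 without WT control 1 and TG control 1, and 1442 and 35 with DESeq2. For the interaction there were 706 and 24 with RLE scaling, 1276 and 33 without a filter, 1253 and 33 with the filter of 5 CPM, 0 and 0 with only the compared groups, 0 and 0 with the split term, 1 and 0 with the correction, 669 genes without those 2 libraries, and 2406 and 39 with DESeq2. TG control against WT control gave 1 gene with only the compared groups, and 416 and 8 with DESeq2. TG intranasal against TG control gave 5 genes without a filter, 0 with only the compared groups, 91 without the 2 libraries and 19 with DESeq2. TG drinking water against TG control gave 6 without a filter, 43 with the split term, 188 without the 2 libraries and 171 with DESeq2. Between the routes there was 1 with only the compared groups and 24 with DESeq2.

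With the correction the medians were -0.0991 for TG control and -0.178 for WT intranasal, each against WT control, 0.0651 for TG intranasal against TG control, and 0.199 for the interaction. With the correction some values changed sign, and none of these was then called. In TG control against WT control they were Ndufa4 (0.00732, from -0.59) and Ndufa4l2 (0.140, from -0.39). In the interaction they were Ndufc1 (-0.205), which had been called at 1.59, Ndufs7 (-0.0737, from 1.01) and Ndufa4l2 (-0.425, from 0.44). The Ndufs1 interaction was 0.00144 with RLE scaling, 0.0203 with upper-quartile scaling, 0.0246 without the 2 libraries and 0.00145 with DESeq2, and Ndufa4l2 in WT intranasal was -0.0356 without the 2 libraries.

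Replicate numbers recur in every group, but the labels do not say that they pair libraries. Over 30 same-numbered pairs the correlation of deviations ran from -0.202 to 0.242, and 12 were over 0.1, so the numbers were not taken to pair them. With the replicate block, calls over all genes and Nduf genes were 531 and 13 for TG control against WT control, 1587 and 32 for WT intranasal against WT control, and 2598 and 38 for the interaction, with 0 genes for TG intranasal and 2 for TG drinking water against TG control. The block with the correction gave 24 and 1, 250 genes for WT intranasal, 0 genes for TG intranasal and 3 Nduf genes in the interaction, with medians of -0.100, -0.178, 0.0667 and 0.198. With both, Ndufa4 (0.00593), Ndufa4l2 (0.152), Ndufc1 (-0.205), Ndufs7 (-0.0790) and Ndufa4l2 in the interaction (-0.425) were on the other side of 0.

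Leaving out 1 library at a time, calls over all genes ranged from 2 to 3 for TG control against WT control, 0 to 960 for WT intranasal against WT control (Nduf genes 0 to 21), 0 to 8 for TG intranasal, 0 to 8 for TG drinking water, both against TG control, and 0 to 2389 for the interaction (Nduf genes 0 to 36). The members' median ranged from -0.833 to -0.389, from -0.965 to -0.610, from 0.192 to 0.571 and from -0.0732 to 0.310 in those 4 comparisons. It ranged from 0.0909 to 0.395 between the routes, and from 1.02 to 1.43 for the interaction. Ndufs1 ranged from -0.00993 to 0.182 in TG control against WT control, from -0.127 to 0.0648 in WT intranasal against WT control and from -0.125 to 0.0696 in the interaction, and Ndufa4l2 from -0.0462 to 0.202 in WT intranasal against WT control. The cause of these changes was not tested.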
